A study of Homo sapiens with 8 samples.

Results

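The proteasome genes described here are the 45 genes, of 13730 in the deposited expression table, whose symbols begin with PSMA, PSMB, PSMC, PSMD, PSME, PSMF or PSMG followed by a digit. Antisense names, of which there were 3, were dropped. Messenger RNA of LN229-TAZ(4SA) cells was sequenced to ask how TrxR1 inhibition and glucose deprivation combine to affect the death of tumour cells. LN229 is a human glioblastoma line, and the labels give TAZ(4SA) as a name without describing it. TrxR1, encoded by TXNRD1, is the cytosolic thioredoxin reductase. The 4 groups, of 2 libraries each, were TrxR1 knockout (KO) cells in glucose-deprived medium, control (EV) cells in glucose-deprived medium, KO cells in regular medium and EV cells in regular medium. All cells carried TAZ(4SA) and were grown in DMEM with fetal bovine serum. The labels do not give how the knockout was made, the number of clones, the time without glucose, or whether the 2 libraries of a group came from separate cultures. P-values therefore reflect no more than the scatter between libraries, which could be technical. Letters a and b name the libraries within each group, in the order of the columns.

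The proteasome is the large protease that degrades proteins tagged with ubiquitin. Its 20S core is a barrel of stacked alpha and beta rings, with the protease sites of PSMB5, PSMB6 and PSMB7 facing the inside. A 19S cap binds either end: a ring of ATPases (PSMC genes) unfolds the substrate, and non-ATPase subunits (most PSMD genes) bind ubiquitin and, through PSMD14, cut it off. The PSME genes encode other caps that open the core without ubiquitin, PSMF1 encodes an inhibitor of the core, and the PSMG genes with PSMD5, PSMD9 and PSMD10 encode chaperones that help assemble the particle and are not parts of it. When proteasome function falls, cells raise subunit genes together through the transcription factor encoded by NFE2L1.

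By class, the 45 genes comprised 7 alpha-ring genes, 6 beta-ring genes, the inducible beta subunit PSMB10, 6 cap ATPases, 11 cap non-ATPases, 5 activator or inhibitor genes, 7 assembly chaperones and 2 interacting proteins. These 2, PSMC3IP and PSME3IP1, were caught by their names and are not subunits: PSMC3IP acts in meiotic and homologous recombination. Of 50 RefSeq protein-coding genes with such names, 5 (PSMA8, PSMB3, PSMB8, PSMB9 and PSMB11) had no row and were not analysed here. All 45 genes passed the filter on low values, an average of 0 or more over the 8 libraries on the log2 CPM scale, which left 13057 genes to test. CPM are read counts scaled to the size of the library. By GENCODE release 29, 16 of the 45 genes share exon bases with another protein-coding gene and 11 have named pseudogenes, so that reads could be shared. The preparation does not mark strand.

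The libraries held between 70083018 and 107229069 reads in the table, so that 1 read was worth 0.0095 to 0.0143 CPM. The glial and mesenchymal glioma markers VIM, NES, CD44, SOX2, GFAP, OLIG2, S100B and EGFR were all in the table, 7 of the 8 above 1 CPM on average, with a summed level of 4908 to 5286 CPM per library. Of 4 leukocyte markers CD68 alone was present, and of 3 endothelial markers none was. Of the 3 neuronal markers, all in the table, RBFOX3 averaged under 1 CPM. TXNRD1 mRNA was 361 ± 13.8 CPM in KO and 501 ± 11.3 CPM in EV cells without glucose, and 247 ± 3.3 CPM in KO and 262 ± 1.5 CPM in EV cells in regular medium (SD, n = 2 each). It was called lower in KO cells without glucose (adjusted p = 1.97e-05) but not in regular medium (adjusted p = 0.19), and the level of the mRNA does not show whether the protein was lost. Between the 2 KO glucose-deprived libraries, 39 of the 45 proteasome genes were higher in library a, by a median of 0.063 log2 units, against 0.042 over all genes averaging 6 or more on the log2 CPM scale. In bulk RNA a change in the share of a cell type and a change of RNA per cell cannot be told apart.

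Promoter sequences were read for 39 of the 45 genes from RefSeq (GRCh38.p14), as windows running from 250 bases before to 50 bases after the start site. Shown here are those of 4 genes on which the comparisons below turn and that hold the core letters of the antioxidant response element, TGACNNNGC, which the NFE2L1 and NFE2L2 proteins bind. PSME3, with the largest fall of all in medium without glucose and no match, follows them. The windows of PSMD11 and PSMD2, on which the comparisons also turn, held no match and are not shown. Capitals mark the letters that match on either strand, and each sequence runs 5′ to 3′ on the strand of its gene.

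PSMD12 (chr17:67366528-67366827, minus strand): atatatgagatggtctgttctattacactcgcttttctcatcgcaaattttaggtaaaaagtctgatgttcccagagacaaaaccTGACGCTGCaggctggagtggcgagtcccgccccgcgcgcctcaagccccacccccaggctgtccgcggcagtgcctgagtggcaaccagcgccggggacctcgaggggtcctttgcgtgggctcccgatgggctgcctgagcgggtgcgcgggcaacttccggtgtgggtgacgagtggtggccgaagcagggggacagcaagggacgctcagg
PSMD3 (chr17:39980557-39980856, plus strand): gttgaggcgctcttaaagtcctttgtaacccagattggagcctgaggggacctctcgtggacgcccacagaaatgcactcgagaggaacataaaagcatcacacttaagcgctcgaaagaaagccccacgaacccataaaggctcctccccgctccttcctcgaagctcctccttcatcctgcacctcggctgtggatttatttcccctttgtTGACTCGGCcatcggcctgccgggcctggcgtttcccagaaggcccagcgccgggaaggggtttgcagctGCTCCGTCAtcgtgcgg
PSMD1 (chr2:231056617-231056916, plus strand): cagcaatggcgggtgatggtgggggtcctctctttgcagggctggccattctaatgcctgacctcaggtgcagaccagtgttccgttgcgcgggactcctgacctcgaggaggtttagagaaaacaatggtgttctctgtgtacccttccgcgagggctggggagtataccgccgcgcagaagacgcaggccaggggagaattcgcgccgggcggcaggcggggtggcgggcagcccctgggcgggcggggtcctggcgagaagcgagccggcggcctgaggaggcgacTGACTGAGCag
PSMG1 (chr21:39183402-39183701, minus strand): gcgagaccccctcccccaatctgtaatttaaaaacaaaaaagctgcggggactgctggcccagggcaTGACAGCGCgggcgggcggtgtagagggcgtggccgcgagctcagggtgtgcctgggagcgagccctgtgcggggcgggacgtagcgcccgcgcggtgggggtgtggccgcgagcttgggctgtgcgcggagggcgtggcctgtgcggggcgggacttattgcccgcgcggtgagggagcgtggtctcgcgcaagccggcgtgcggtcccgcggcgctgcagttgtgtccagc
PSME3 (chr17:42833147-42833446, plus strand): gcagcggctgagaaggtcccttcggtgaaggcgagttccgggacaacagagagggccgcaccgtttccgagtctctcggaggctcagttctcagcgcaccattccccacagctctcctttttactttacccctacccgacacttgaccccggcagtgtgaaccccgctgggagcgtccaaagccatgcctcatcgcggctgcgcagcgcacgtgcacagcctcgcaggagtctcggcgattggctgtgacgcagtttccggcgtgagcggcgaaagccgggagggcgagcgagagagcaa

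Counting the start site as 0, the match began at -165 in PSMD12, at -37 and 33 in PSMD3, at 39 in PSMD1 and at -183 in PSMG1. In all, 13 of the 39 genes held the letters TGACNNNGC: PSMA4, PSMC4, PSMC5, PSMD1, PSMD3, PSMD5, PSMD9, PSMD12, PSME1, PSME2, PSME4, PSMG1 and PSMG2. That is 26.5% of their 49 windows, against 13.3% of all 35116 windows of that length. The AP-1 letters TGACTCA, which can overlap them, were in the windows of 3 genes (6.12% of windows, against 4.95% of all), the heat shock letters GAANNTTC in 1 gene (4.08% against 6.77%), the C/EBP-ATF letters TGATGNAA in 1 gene (2.04% against 3.62%) and CCAAT in 19 genes (42.9% against 34.6%). All were searched on both strands. A match is a string of letters and not a site shown to be bound. Windows for PSMA7, PSMB1, PSMB6, PSMB7, PSMD4 and PSMG3 were not used here.

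Levels per length were compared in EV cells in regular medium, as CPM per kilobase of exon in GENCODE release 29. PSMA7, a subunit of the alpha ring, was highest at 249 ± 5.2 CPM per kb (SD, n = 2), and PSMB4, of the beta ring, came next at 184 ± 2.4 CPM per kb. The constitutive protease subunit PSMB5 stood at 90.9 ± 0.16 CPM per kb and PSMB10, the subunit that takes the place of PSMB7 in immune cells, at 6.69 ± 0.020 CPM per kb. PSMG4, an assembly chaperone, was lowest at 0.927 ± 0.0049 CPM per kb. The chaperones spanned much of the order: PSMG3 stood at 45.7 ± 0.067 CPM per kb, 16th of the 45 genes, and PSMD9 at 5.15 ± 0.026 CPM per kb, 44th. The order depends on the length used, which counts every annotated exon base of a gene, 8774 for PSMD9 and 1853 for PSMB10. PSMD9 thus stood below PSMB10 per kb, although it was at 45.0 and 45.4 CPM against 12.4 and 12.4 CPM.

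**Figure D1:**
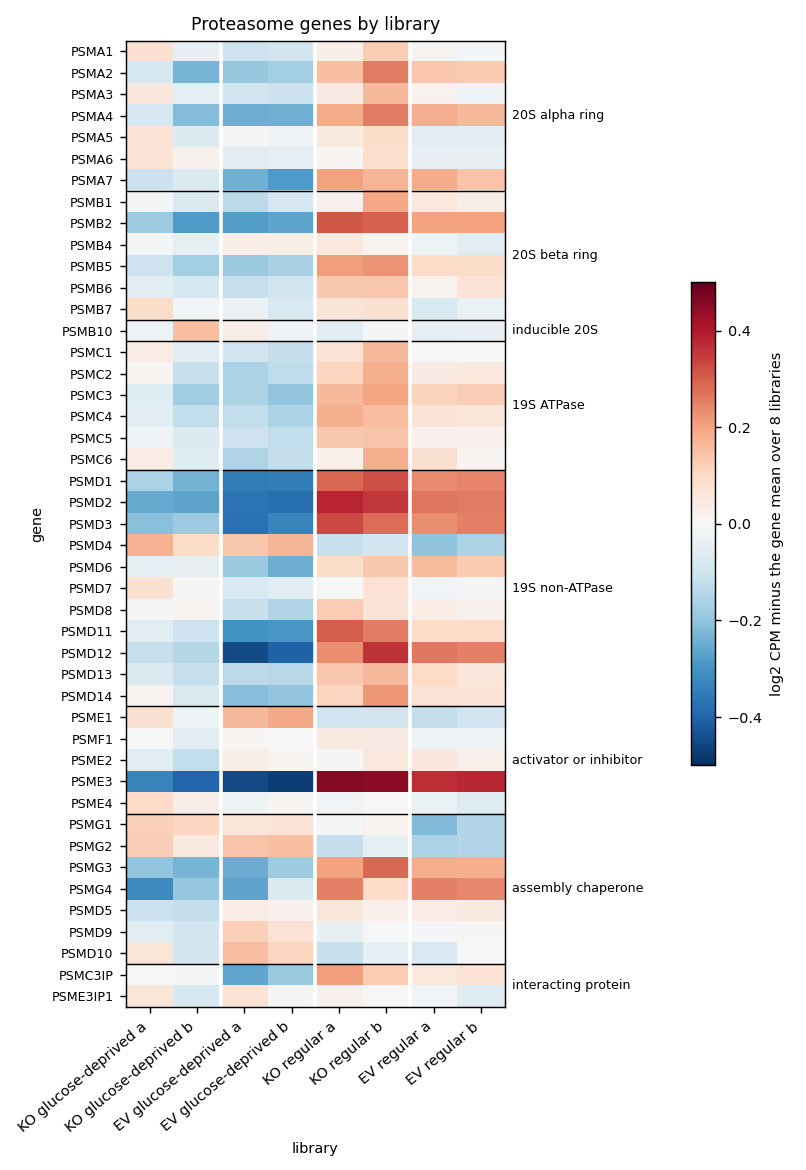
Heat map of the 45 proteasome genes (rows, grouped by class) in the 8 libraries (columns). Colour is log2 CPM minus the gene's mean over the libraries. Rows such as PSMD1, PSMD2, PSMD3, PSMD12 and PSME3 are blue in the 4 glucose-deprived libraries and red in the 4 regular ones, and PSMD4, PSME1, PSMG1 and PSMG2 show the opposite order.

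The heat map sets all values side by side, and in it the medium separates the libraries more plainly than the knockout does. Summed over the 45 genes, the level was 6147 ± 176 CPM in KO and 5855 ± 3.3 CPM in EV cells without glucose, against 7310 ± 63 CPM in KO and 6927 ± 19 CPM in EV cells in regular medium (SD, n = 2 each). The proteasome genes took between 0.585% and 0.735% of the reads of a library.

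Glucose deprivation lowered most of the cap and part of the core, in both cell types. In EV cells 26 of the 45 genes fell and 5 rose, and in KO cells 27 fell and 4 rose (limma, Benjamini-Hochberg adjusted p under 0.05). Deprivation changed much of the transcriptome: of all 13057 genes, 38.7% fell and 37.5% rose in EV cells, 76.2% in all, and in KO cells 36.8% fell and 36.5% rose, 73.3% in all. The share of proteasome genes that fell, 57.8% in EV and 60% in KO cells, exceeded that background, and their median log2 fold change was -0.15 in each cell type, against -0.01 and -0.00 over all genes. The share called in either direction, 68.9% in each cell type, was below the 76.2% and 73.3% of all genes. The 2 comparisons have no library in common, and 25 genes fell in both, 4 rose in both and 0 were called in opposite directions. Over all genes 32.6% fell in both and 32.4% rose in both. Both deprived libraries lay below both regular ones in 31 of the 45 genes in EV cells and 30 in KO cells, against 45.7% and 42.1% of all genes, and above them in 12 and 5, against 44.7% and 41.6%.

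Markers of the cells moved with the medium as well. The leukocyte marker CD68 was at 44.3 to 48.9 CPM in KO and 51.7 to 54.1 CPM in EV cells without glucose, against 24.9 to 25.4 CPM in KO and 24.8 to 26.1 CPM in EV cells in regular medium, while PTPRC, CD3E and AIF1 were not analysed here. The neuronal marker SYT1 was at 47.6 to 48.7 CPM in KO and 49.2 to 51.0 CPM in EV cells without glucose, against 14.8 to 15.8 CPM in KO and 14.8 to 16.3 CPM in EV cells in regular medium. CD68 and SYT1 were higher in every deprived library. The neuronal marker SNAP25 was lower in every deprived library. RBFOX3 was at 0.68 and 1.09 CPM in KO and 0.28 and 0.22 CPM in EV cells without glucose. In regular medium it was at 0.59 and 0.48 CPM in KO and 0.67 and 0.65 CPM in EV cells. The glioma marker SOX2 was at 15.1 to 15.2 CPM in KO and 16.7 to 16.9 CPM in EV cells without glucose, against 38.0 to 39.5 CPM in KO and 54.3 to 56.0 CPM in EV cells in regular medium. NES, the gene of nestin, was at 435.9 to 437 CPM in KO and 376 to 395 CPM in EV cells without glucose, against 846 to 860.3 CPM in KO and 787 to 788 CPM in EV cells in regular medium. Both were lower in every deprived library, as was CD44. VIM, OLIG2 and GFAP went the other way and were higher in every deprived library. VIM was at 3308 to 3696 CPM without glucose, against 2897 to 3019 CPM in regular medium. OLIG2 was at 14.7 to 16.9 CPM against 6.0 to 6.5 CPM. For S100B and EGFR the deprived and regular libraries overlapped. The 8 glioma markers together summed to 4908 to 5102 CPM in KO and 5241 to 5286 CPM in EV cells without glucose. In regular medium the sum was 5099 to 5256 CPM in KO and 5053 to 5089 CPM in EV cells. The part of these markers in the proteasome differences was not tested.

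Within the 19S cap, 15 of 17 genes fell and 1 rose in EV cells, and 14 fell and 1 rose in KO cells. Those that fell made up 88.2% in EV and 82.4% in KO cells, against 38.7% and 36.8% of all genes. The share called in either direction was 94.1% and 88.2%, against 76.2% and 73.3%. The largest falls were in non-ATPase subunits. PSMD2, a scaffold of the cap base that holds shuttle factors and incoming substrates, was at 413 and 410.5 CPM in KO and 381 and 379 CPM in EV cells without glucose, against 641 and 629 CPM in KO and 592 and 589 CPM in EV cells in regular medium. All 4 deprived libraries lay below all 4 regular ones, by a log2 fold change of -0.64 ± 0.029 in EV and -0.62 ± 0.029 in KO cells (SE, adjusted p = 1.56e-08 and 1.98e-08).

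PSMD12, a subunit of the cap's lid, was at 119 and 117 CPM in KO and 94.5 and 97.4 CPM in EV cells without glucose. In regular medium it was at 151 and 165 CPM in KO and 155 and 153 CPM in EV cells. The deprived libraries were again the lower ones, and among them those of EV cells were lowest. Its log2 fold change with deprivation was -0.68 ± 0.043 in EV cells (adjusted p = 1.59e-07) and -0.42 ± 0.043 in KO cells (adjusted p = 6.71e-06).

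PSMD1, the other large scaffold of the base, was at 189 and 179 CPM in KO and 165 and 166 CPM in EV cells without glucose, against 257 and 264 CPM in KO and 248 and 249.5 CPM in EV cells in regular medium. The deprived and regular libraries did not overlap, and the log2 fold change was -0.59 ± 0.035 in EV and -0.50 ± 0.035 in KO cells. PSMD3, of the lid, was at 141 and 144 CPM in KO and 126 and 130.2 CPM in EV cells without glucose, against 205 and 198 CPM in KO and 192 and 195 CPM in EV cells in regular medium. Its log2 fold changes, -0.59 ± 0.035 in EV and -0.50 ± 0.035 in KO cells, were the same as those of PSMD1 to the printed digits. PSMD1 shares 10.8% of its exon bases with HTR2B on the opposite strand.

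Of the 8 lid genes 7 fell in each cell type (PSMD3, PSMD6, PSMD8, PSMD11, PSMD12, PSMD13 and PSMD14), against 38.7% of all genes in EV and 36.8% in KO cells. The median log2 fold change over the 8 was -0.32 in EV and -0.22 in KO cells. PSMD14, the deubiquitinase of the lid, was at 119 and 112 CPM in KO and 101 and 103 CPM in EV cells without glucose, against 126 and 137 CPM in KO and 123 and 123 CPM in EV cells in regular medium. Its log2 fold changes were -0.28 ± 0.045 in EV and -0.19 ± 0.045 in KO cells. PSMD7, the partner of PSMD14, was the lid gene not called in either (log2 fold change -0.05 ± 0.039 in EV and 0.01 ± 0.039 in KO cells).

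The 6 ATPases fell by less than the largest non-ATPase falls. All 6 fell in EV cells and 5 of 6 in KO cells, or 100% and 83.3%, against 38.7% and 36.8% of all genes. The log2 fold changes ran from -0.29 to -0.11 in EV cells and from -0.30 to -0.12 in KO cells. PSMC3, with the smallest adjusted p among them in EV cells, was at 224 and 207 CPM in KO and 209 and 204 CPM in EV cells without glucose, against 262 and 268 CPM in KO and 253 and 254 CPM in EV cells in regular medium. Its deprived and regular libraries did not overlap, and its log2 fold change was -0.29 ± 0.040 in EV and -0.30 ± 0.040 in KO cells. PSMC6 missed the threshold in KO cells (-0.12 ± 0.055, adjusted p = 0.078), and without EV glucose-deprived library a or EV regular library a it missed it in EV cells too. The value of PSMC1 is uncertain, since the gene has 13 named pseudogenes and shares 75.8% of its exon bases with NRDE2 on the other strand. PSMC5 shares 19.5% with FTSJ3, which itself fell by 0.62 in EV and by 0.63 in KO cells on the log2 scale.

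PSMD4 was the exception in the cap. The gene encodes a receptor that binds ubiquitin chains on the 19S particle. It was at 254 and 240.0 CPM in KO and 247 and 253 CPM in EV cells without glucose, against 208 and 210.4 CPM in KO and 196 and 202 CPM in EV cells in regular medium. Every deprived library was above every regular one, with log2 fold changes of 0.33 ± 0.037 in EV (adjusted p = 1.11e-05) and 0.24 ± 0.037 in KO cells (adjusted p = 0.000153).

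**Figure D2:**
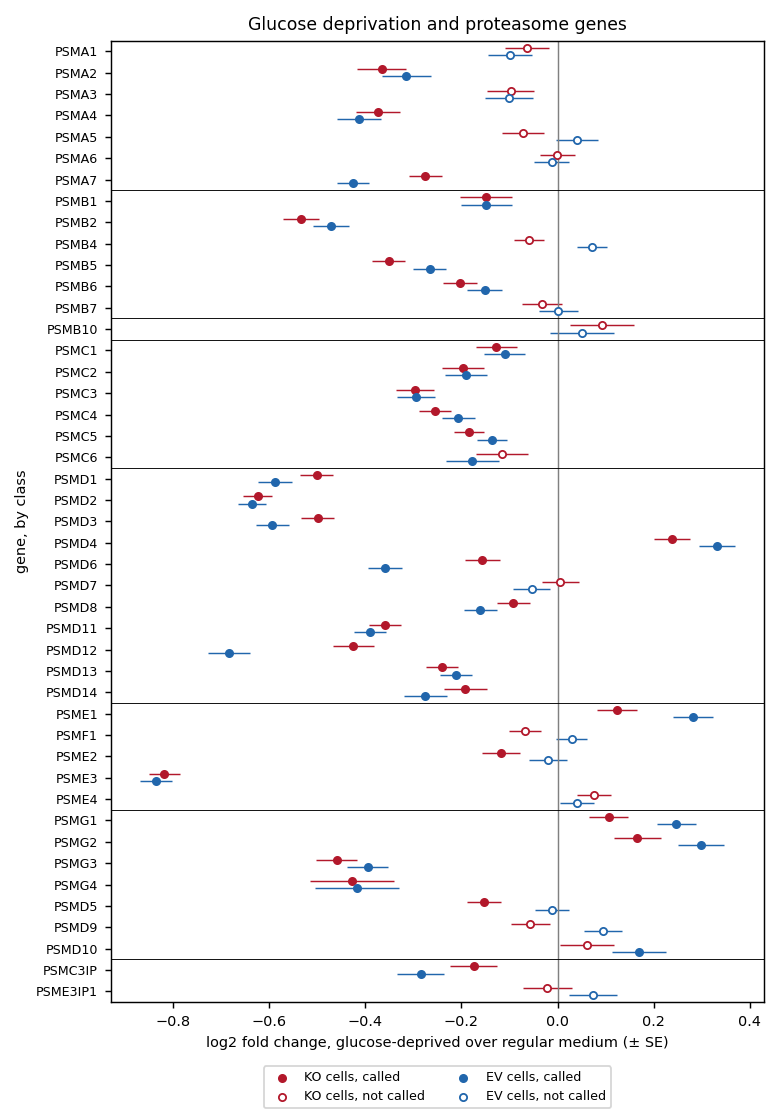
Log2 fold change, glucose-deprived over regular medium, of each proteasome gene in KO cells (red) and EV cells (blue). Points are limma estimates, bars 1 SE, and filled points are called at an adjusted p under 0.05. Most points of the cap lie left of 0, down to -0.68 for PSMD12 in EV cells, PSME3 reaches -0.84, and PSMD4 lies right of 0 in both cell types.

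In the plot of deprivation effects the points for KO and EV cells lie close to each other for most genes, while the spread across genes is wide. In the 20S core 7 of 14 genes fell and 0 rose, in each cell type. That is 50% called lower, against 38.7% of all genes in EV and 36.8% in KO cells, and 50% called in either direction, against 76.2% and 73.3% of all genes. PSMB2, a beta-ring subunit, fell most, by 0.47 ± 0.037 in EV and 0.53 ± 0.037 in KO cells on the log2 scale. It was at 194 and 181 CPM in KO and 181 and 183 CPM in EV cells without glucose, against 273 and 269 CPM in KO and 252 and 252 CPM in EV cells in regular medium. PSMA7 fell by 0.43 ± 0.033 in EV and by 0.27 ± 0.033 in KO cells, PSMA4 by 0.41 ± 0.045 and 0.37 ± 0.045, and PSMA2 by 0.31 ± 0.051 and 0.37 ± 0.051, all of the alpha ring.

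The genes of the protease sites differed among themselves. PSMB5, of the chymotrypsin-like site, was at 140.1 and 134 CPM in KO and 132 and 135 CPM in EV cells without glucose, against 174 and 176 CPM in KO and 161 and 160.3 CPM in EV cells in regular medium, with log2 fold changes of -0.27 ± 0.034 in EV and -0.35 ± 0.034 in KO cells. PSMB6, of the caspase-like site, was at 76.3 and 74.4 CPM in KO and 72.9 and 73.8 CPM in EV cells without glucose, against 86.8 and 86.7 CPM in KO and 80.1 and 82.9 CPM in EV cells in regular medium. It fell by 0.15 ± 0.036 in EV and by 0.20 ± 0.036 in KO cells on the log2 scale, and neither gene's deprived libraries overlapped the regular ones of the same cells.

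PSMB7, of the trypsin-like site, was at 132 and 123 CPM in KO and 122 and 118 CPM in EV cells without glucose, against 129.9 and 131 CPM in KO and 118 and 121 CPM in EV cells in regular medium. The groups overlapped in both cell types, and the interval of the change, at 95%, ran from -0.09 to 0.09 in EV and from -0.12 to 0.06 in KO cells. PSMB10 was low in every library, at 12.6 and 14.2 CPM in KO and 13.1 and 12.6 CPM in EV cells without glucose, against 12.3 and 12.7 CPM in KO and 12.4 and 12.4 CPM in EV cells in regular medium. It was not called, with intervals of -0.10 to 0.20 in EV and -0.06 to 0.24 in KO cells.

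Among the activators, PSME3 fell more than any other proteasome gene and PSME1 rose. PSME3 encodes the nuclear activator of the core known as PA28 gamma. It was at 186 and 178 CPM in KO and 171 and 169 CPM in EV cells without glucose, against 322 and 319.6 CPM in KO and 303 and 304 CPM in EV cells in regular medium. All deprived libraries were far below all regular ones, with log2 fold changes of -0.84 ± 0.033 in EV (adjusted p = 4.92e-09) and -0.82 ± 0.033 in KO cells (adjusted p = 6.31e-09). PSME3 shares 5.82% of its exon bases with BECN1 on the opposite strand, which changed by -0.05 ± 0.037 in EV and -0.11 ± 0.037 in KO cells.

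PSME1 encodes the alpha subunit of the cytosolic activator, whose beta subunit is PSME2. It was at 56.9 and 53.3 CPM in KO and 60.4 and 61.6 CPM in EV cells without glucose, against 50.4 and 50.7 CPM in KO and 49.8 and 50.6 CPM in EV cells in regular medium. The deprived libraries were all above the regular ones, most in EV cells, with log2 fold changes of 0.28 ± 0.042 in EV and 0.12 ± 0.042 in KO cells. PSME1 shares 0.505% of its exon bases with EMC9 on the opposite strand, which rose by 0.72 in EV and 0.53 in KO cells. The rise of PSME1 in KO cells was not called without KO glucose-deprived library a or KO regular library a (adjusted p up to 0.15). PSME2 did not rise with it: its log2 fold change was -0.02 ± 0.039 in EV cells and -0.12 ± 0.039 in KO cells, a fall called in KO cells (adjusted p = 0.0203) but not without KO glucose-deprived library b or KO regular library b. PSME2 shares 6.03% with RNF31 on the opposite strand, which rose in both cell types. The activator gene PSME4 and the inhibitor gene PSMF1 were not called in either cell type.

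The assembly chaperones were called in both directions, as all genes were. Of the 7 chaperones 42.9% rose and 28.6% fell in EV cells, against 37.5% and 38.7% of all genes. In KO cells 28.6% rose and 42.9% fell, against 36.5% and 36.8%. The share called in either direction, 71.4% in each cell type, was no more than the 76.2% and 73.3% of all genes. PSMG1 and PSMG2, which work as a pair in building the alpha ring, both rose: PSMG1 by 0.25 ± 0.041 in EV and 0.11 ± 0.041 in KO cells, and PSMG2 by 0.30 ± 0.048 in EV and 0.17 ± 0.048 in KO cells, on the log2 scale. PSMG3 and PSMG4, the other pair, both fell: PSMG3 by 0.39 ± 0.042 in EV and 0.46 ± 0.042 in KO cells, and PSMG4 by 0.42 ± 0.087 in EV and 0.43 ± 0.087 in KO cells. PSMG1 was at 47.8 and 47.5 CPM in KO and 45.9 and 46.2 CPM in EV cells without glucose, against 43.9 and 44.6 CPM in KO and 37.8 and 39.8 CPM in EV cells in regular medium. PSMG3 was at 68.9 and 67.2 CPM in KO and 66.3 and 69.8 CPM in EV cells without glucose, against 90.7 and 96.4 CPM in KO and 89.4 and 89.6 CPM in EV cells in regular medium. In neither gene did deprived and regular libraries of the same cells overlap.

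PSMG4 shares 13.3% of its exon bases with SLC22A23 on the opposite strand. PSMG2 shares 13.9% of its exon bases with CEP76 and 2.74% with SPIRE1, both on the opposite strand, and SPIRE1 rose by 0.22 in EV cells. The rises of PSMG1 and PSMG2 in KO cells rest on few libraries: PSMG1 was not called without any single library other than KO regular library b, and PSMG2 was not called without KO glucose-deprived library a or KO regular library a. PSMD10, or gankyrin, rose in EV cells (0.17 ± 0.056, adjusted p = 0.0174), though not without EV glucose-deprived library a or EV regular library a. PSMD5, an inhibitory chaperone of the cap base, fell in KO cells (-0.15 ± 0.036, adjusted p = 0.00262) and was at -0.01 ± 0.036 in EV cells.

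**Figure D3:**
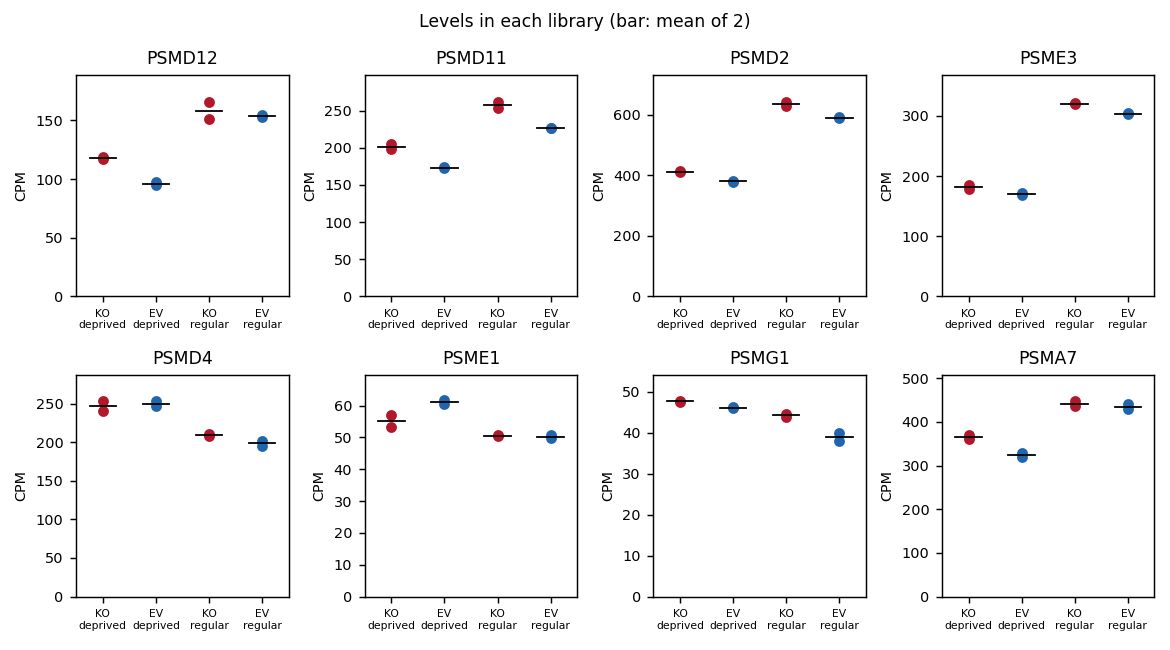
CPM of 8 proteasome genes in each library, with the mean of the 2 libraries of a group as a bar. Each axis starts at 0. In the top row and in PSMA7 the glucose-deprived libraries are the lower ones, and in PSMD4, PSME1 and PSMG1 the higher ones.

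The plot of levels by library shows how small the distance between the libraries of a group was beside the step between media for PSMD2 and PSME3. Leaving out each library in turn gave 27 to 35 called genes in EV cells and 28 to 33 in KO cells. In EV cells PSMB1 and PSMC1 were not called without any 1 of the 4 EV libraries. In KO cells they were not called without KO glucose-deprived library b or KO regular library b, and PSMD8 was not called without any single library other than KO glucose-deprived library b or KO regular library b.

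In regular medium the knockout was accompanied by small, mostly upward differences. PSMD11, PSMG1 and PSMC5 rose and 0 fell, that is 6.67% of the 45 genes against 7.25% of all genes called in either direction (3.87% higher and 3.38% lower). PSMD11, a lid subunit whose phosphorylation and level are known to raise proteasome activity, was at 262 and 253 CPM in KO and 226 and 227 CPM in EV cells. PSMD11 shares 9.38% of its exon bases with an antisense transcript. Both KO libraries were above both EV libraries, and the log2 fold change was 0.19 ± 0.033 (SE, adjusted p = 0.0104).

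PSMG1 was at 43.9 and 44.6 CPM in KO and 37.8 and 39.8 CPM in EV cells, with a log2 fold change of 0.19 ± 0.041 (adjusted p = 0.022). PSMC5, a cap ATPase, was at 301 and 302 CPM in KO and 277 and 278 CPM in EV cells, with a log2 fold change of 0.12 ± 0.031 (adjusted p = 0.0493). Neither gene's groups overlapped. These counts rest on few libraries: 0 genes were called without EV regular library a or b, 1 (PSMD11) without EV glucose-deprived library a or b or without KO regular library a or b, and 8 without KO glucose-deprived library a or b. The deprived libraries enter through the shared estimate of the spread. In each of these fits the share called over all genes moved the same way as the number of proteasome genes.

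Most genes not called lay on the same side. Of the 45 genes 39 had a log2 fold change above 0, with a median of 0.07 against -0.00 over all genes, and the range was -0.07 to 0.19. In 33 genes, or 73.3%, both KO libraries lay above both EV libraries, and in 0 both lay below, against 27.7% above and 27.7% below over all genes. All 14 core genes and 16 of 17 cap genes were on the positive side. PSMB5 was at 174 and 176 CPM in KO and 161 and 160.3 CPM in EV cells (0.12 ± 0.034, adjusted p = 0.058), and PSMD2, at 0.10 ± 0.029, also missed the threshold (adjusted p = 0.0583).

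In glucose-deprived medium most non-ATPase genes of the cap were higher in KO than in EV cells. In KO cells 10 of the 45 genes were higher and 3 lower than in EV cells, 28.9% in all, against 19.6% of all genes (9.04% higher and 10.6% lower). Of the 11 non-ATPases 8 were higher (PSMD1, PSMD2, PSMD3, PSMD6, PSMD8, PSMD11, PSMD12 and PSMD14) and 0 lower, while of the 6 ATPases 0 were called, though all 6 were on the positive side, from 0.05 to 0.12. Both KO libraries were above both EV libraries in 27 of the 45 genes, against 28% of all genes, and below them in 7, against 33.1%. The class median was 0.15 for the non-ATPases and 0.08 for the ATPases, against -0.01 over all genes.

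PSMD12 differed most. It was at 119 and 117 CPM in KO and 94.5 and 97.4 CPM in EV cells, with a log2 fold change of 0.30 ± 0.043 (SE, adjusted p = 0.00146), or 22.9% higher. PSMD11 was at 204 and 198 CPM in KO and 172 and 174 CPM in EV cells, with a log2 fold change of 0.22 ± 0.033 (adjusted p = 0.0019), or 16.3% higher. In both genes the KO libraries lay above the EV libraries. They were the 2 genes called whichever single library was left out.

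PSMD6, a further lid subunit, was at 98.8 and 99.1 CPM in KO and 89.6 and 86.0 CPM in EV cells (0.17 ± 0.036, adjusted p = 0.00912). PSMD14 was at 119 and 112 CPM in KO and 101 and 103 CPM in EV cells (0.18 ± 0.045, adjusted p = 0.0216). PSMD3, PSMD1, PSMD8 and PSMD2 were higher by 0.15, 0.15, 0.13 and 0.12 on the log2 scale. The groups did not overlap in any of these. PSMD4 was the non-ATPase on the negative side, at 254 and 240.0 CPM in KO and 247 and 253 CPM in EV cells (-0.02 ± 0.037).

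**Figure D4:**
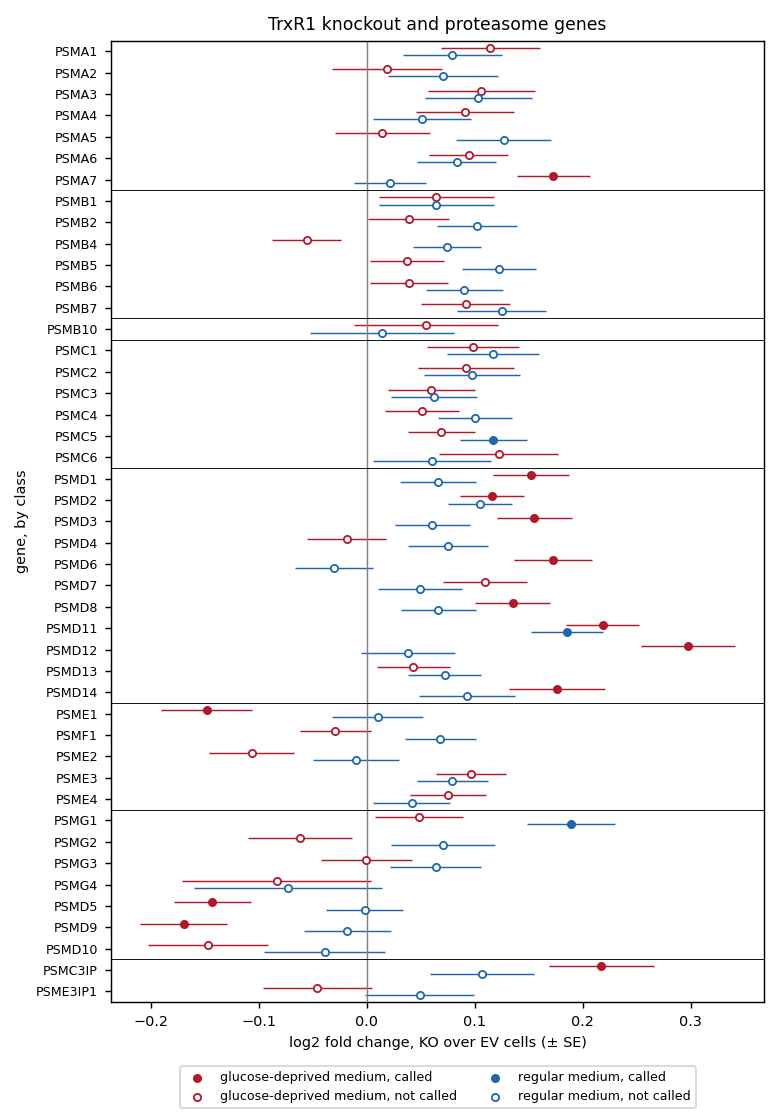
Log2 fold change, KO over EV cells, of each proteasome gene in glucose-deprived medium (red) and regular medium (blue). Points are limma estimates, bars 1 SE, and filled points are called at an adjusted p under 0.05. Without glucose the called points of the cap lie right of 0, up to 0.30 for PSMD12, and those of PSME1, PSMD5 and PSMD9 lie left of it.

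The plot of knockout effects shows the non-ATPase genes to the right and most chaperones to the left in medium without glucose. In the core, PSMA7 was the gene called. It was at 361 and 369.6 CPM in KO and 329 and 319 CPM in EV cells, which did not overlap, with a log2 fold change of 0.17 ± 0.033 (adjusted p = 0.00632). Of the protease-site genes none of PSMB5, PSMB6 and PSMB7 was called, with log2 fold changes of 0.04 ± 0.034, 0.04 ± 0.036 and 0.09 ± 0.041. PSMB4 was the core gene on the negative side, at 407 and 395 CPM in KO and 417 and 417 CPM in EV cells (-0.06 ± 0.032, adjusted p = 0.241). PSMC3IP, which is not a subunit, was higher at 26.2 and 26.0 CPM in KO against 21.9 and 23.0 CPM in EV cells (0.22 ± 0.048), and it shares 29.9% of its exon bases with MLX on the opposite strand, which was not called.

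The genes that were lower in KO cells without glucose were not parts of the core or cap. PSMD9, a chaperone of the ATPase ring that shares 14.9% of its exon bases with AC069503.2 and 4.97% with WDR66, was at 43.5 and 42.3 CPM in KO and 49.1 and 47.5 CPM in EV cells, with a log2 fold change of -0.17 ± 0.040 (adjusted p = 0.0164). PSMD5, another chaperone of that ring, was at 56.6 and 56.2 CPM in KO and 62.6 and 61.9 CPM in EV cells (-0.14 ± 0.036, adjusted p = 0.02). PSME1 was at 56.9 and 53.3 CPM in KO and 60.4 and 61.6 CPM in EV cells (-0.15 ± 0.042, adjusted p = 0.0339). In each the KO libraries were the lower ones. PSMD10, which binds the ATPase ring as well, was also below EV in both KO libraries (-0.15 ± 0.056) but missed the threshold (adjusted p = 0.0917).

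These counts depend on the EV libraries without glucose. The share called over all genes also fell without any single EV library, and without KO glucose-deprived library b. Without EV glucose-deprived library a, 4 genes were called (PSMA7, PSMD6, PSMD11 and PSMD12), and without library b, 3 (PSMD11, PSMD12 and PSMC3IP), with 0 of the lower ones. Without EV regular library a or b there were 9, of which 8 were higher and 1 lower. The 3 lower genes were also not called without KO glucose-deprived library b, where 14 genes were higher and 0 lower. Without KO glucose-deprived library a, 9 genes were higher and 5 lower, and the median over the 45 genes was 0.03, against 0.10 without library b. Library a of that group carried higher levels of most proteasome genes than library b, as given above, and the part of this difference in the comparison was not tested.

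The knockout comparisons in the 2 media share no library. PSMD11 was higher in both, as were 1.7% of all genes, and 0 of the 45 were lower in both, against 1.55%. On the positive side in both media were 32 of the 45 genes, or 71.1%, against 27.1% of all genes. By summed level, the non-ATPases stood at 1948 ± 34 CPM in KO and 1785 ± 5.7 CPM in EV cells without glucose, or 9.12% higher, and at 2432 ± 7.9 CPM in KO and 2295 ± 1.9 CPM in EV cells in regular medium, or 5.97% higher. The assembly chaperones stood at 295 ± 6.6 CPM in KO and 311 ± 0.74 CPM in EV cells without glucose, and at 322 ± 6.1 CPM in KO and 314 ± 3.7 CPM in EV cells in regular medium (SD, n = 2 each).

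Whether the knockout changed the response to deprivation was asked through the interaction of both factors. PSMD12 was the proteasome gene called, 1 of 45 (2.22%), against 4.31% of all genes in either direction (2.31% above 0 and 2.01% below). Its interaction was 0.26 ± 0.061 log2 units (SE, adjusted p = 0.0439): with deprivation it fell by 0.42 in KO cells, against 0.68 in EV cells. By adjusted p, PSMD6 came next at 0.20 ± 0.051 (adjusted p = 0.0533), then PSMA7 at 0.15 ± 0.047 (adjusted p = 0.0941). The lowest interaction was that of PSME1, at -0.16 (adjusted p = 0.143).

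The call on PSMD12 was lost without any single library other than KO glucose-deprived library a or KO regular library b, with adjusted p-values up to 0.2, while its value stayed between 0.19 and 0.32. The number of genes called ran from 0 to 5 as each library was left out, with 5 without KO glucose-deprived library a and 2 without KO regular library b. The share called over all genes moved the same way in each of these fits. By class, all 7 assembly chaperones and all 6 beta-ring genes had interactions below 0, with medians of -0.13 and -0.06. Of 11 non-ATPases 9 had interactions above 0, with a median of 0.07. The beta-ring values ran from -0.13 to -0.0002. Over all genes 51.3% of interactions were below 0 and 48.7% above, with a median of -0.01. No member of the chaperone, beta-ring and non-ATPase classes other than PSMD12 was called.

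The rest of the ubiquitin-proteasome pathway was read from a list of 37 genes, of which 36 were tested and FAF1 was not analysed here. In EV cells 13 rose and 17 fell with deprivation, and in KO cells 10 and 13. Comparing KO with EV cells, 11 were higher and 1 lower without glucose, and 7 were higher and 0 lower in regular medium. The share that fell was 47.2% in EV cells, against 38.7% of all genes, and 36.1% in KO cells, against 36.8%, which is no more than the background. The share higher in KO cells was 30.6% without glucose and 19.4% in regular medium, against 9.04% and 3.87% of all genes.

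Of 11 proteasome subunits and partners with other names, 8 fell and 2 rose with deprivation in EV cells, and 6 fell and 2 rose in KO cells. Those that fell made up 72.7% in EV and 54.5% in KO cells, against 38.7% and 36.8% of all genes. POMP, the chaperone that matures the 20S core, was at 101 and 96.0 CPM in KO and 86.1 and 85.8 CPM in EV cells without glucose, against 128 and 138 CPM in KO and 122 and 125 CPM in EV cells in regular medium. It fell by 0.53 ± 0.044 in EV cells and by 0.44 ± 0.044 in KO cells on the log2 scale, and without glucose it was higher in KO than in EV cells by 0.19 ± 0.044 (adjusted p = 0.0133). The cap deubiquitinases UCHL5 and USP14 fell too, by 0.49 and 0.31 in EV cells and by 0.36 and 0.21 in KO cells. ECPAS, a scaffold that binds the 26S particle, rose by 0.37 in EV and 0.25 in KO cells, and PAAF1, an inhibitor of cap assembly, by 0.28 and 0.29.

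Without glucose 5 of these 11 genes, or 45.5% against 9.04% of all genes, were higher in KO cells: PITHD1 (0.27 ± 0.037), AKIRIN2 (0.24 ± 0.046), ADRM1 (0.20 ± 0.055), POMP and USP14 (0.17 ± 0.038). AKIRIN2 is a factor for nuclear import of proteasomes, and ADRM1 is a ubiquitin receptor of the cap. AKIRIN2 was at 66.8 and 71.5 CPM in KO and 58.8 and 58.2 CPM in EV cells without glucose. The calls on POMP and USP14 were lost without EV glucose-deprived library a or b.

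The zinc finger gene ZFAND2A differed between KO and EV cells in both media. It encodes AIRAP, a partner of the cap that is induced by arsenite and by proteasome inhibition. It was at 133 and 130.5 CPM in KO and 69.1 and 63.6 CPM in EV cells without glucose, against 20.6 and 20.2 CPM in KO and 17.2 and 17.9 CPM in EV cells in regular medium. The KO libraries were the higher ones in both media, by 0.99 ± 0.048 without glucose and 0.22 ± 0.048 in regular medium, with an interaction of 0.78 ± 0.068 (adjusted p = 0.000235). The difference in regular medium was not called without KO regular library a, EV regular library a or EV regular library b (adjusted p up to 0.23). With all libraries kept it was not called under 3 of the 6 other settings: voom weights on the recovered reads, no variance trend, and a fit of only the groups compared.

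UBB, which encodes ubiquitin, was at 718 and 700.0 CPM in KO and 575 and 564 CPM in EV cells without glucose, against 519 and 509 CPM in KO and 502 and 511 CPM in EV cells in regular medium. It was higher in KO cells by 0.32 ± 0.031 without glucose and stood at 0.02 ± 0.031 in regular medium, with an interaction of 0.29 ± 0.044 (adjusted p = 0.00545). Without EV glucose-deprived library b or EV regular library b that interaction was not called (adjusted p up to 0.0531).

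NFE2L1, the transcription factor that raises proteasome genes after inhibition, was at 610.0 and 595 CPM in KO and 687 and 652 CPM in EV cells without glucose, against 462 and 453 CPM in KO and 459 and 452 CPM in EV cells in regular medium. Its mRNA rose with deprivation by 0.56 ± 0.035 in EV and 0.40 ± 0.035 in KO cells. Without glucose it was lower in KO cells (-0.15 ± 0.035, adjusted p = 0.0137), though not called without EV glucose-deprived library a. NGLY1, the enzyme that removes sugars from the NFE2L1 protein, rose by 0.74 in EV and 0.62 in KO cells, and DDI2, the protease that cuts it, fell by 0.37 and 0.40. NFE2L2, the factor of the antioxidant response, rose by 0.57 in EV and 0.70 in KO cells and was not called between KO and EV cells in either medium.

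The letters TGACNNNGC, shown above in PSMD12, PSMD3, PSMD1 and PSMG1, were in 3 of the 9 genes with a window that were higher in KO cells without glucose and in all 3 that were lower there. With deprivation in EV cells they were in 6 of 22 genes with a window that fell and in 3 of 4 that rose. In KO cells they were in 8 of 23 that fell and in all 3 that rose. Over all 39 proteasome genes with a window they were in 13, or 33.3%, against 16.1% of all genes. The shares above that of the 39 genes by most rest on sets of 3 or 4 genes. The counts are a description, and mRNA levels do not show what binds there.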

How the data were processed

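Per the labels' protocols, TRIzol was used to extract RNA, and libraries came from the SMART-Seq mRNA HT kit and Nextera XT. The submitters' processing notes name HISAT2, edgeR and GRCh38, without versions. The authors deposited 1 table of log2 CPM values for 13730 genes and 8 libraries. The scale was read from the values: less an offset of 0.023 CPM, they were whole multiples of 1 read for 100% of genes, within a tolerance of 0.05. CPM values printed have the offset removed. Headers carry the group, not a replicate number, and the suffix GlcN was read as glucose-deprived.

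The log2 CPM values of 13057 genes averaging at least 0 were fitted in 1 model of 4 groups (limma 3.58.1 in R 4.3.3, variance trend, Benjamini-Hochberg adjustment over all genes tested, 4 residual degrees of freedom). Calls needed an adjusted p under 0.05, and ± beside a log2 fold change is 1 SE. The code was tested on simulated data. Members, lists and the rule for named genes (every proteasome gene, and genes of the pathway list) were chosen with earlier results of these data known.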

Additional observations from a re-analysis of the deposited data

Results flagged for a closer look

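PSMD12, the lid subunit, was singled out because its response to deprivation was called different between KO and EV cells by a test of the difference itself. The interaction was 0.26 ± 0.061 log2 units (SE, n = 2 libraries per group, limma adjusted p = 0.0439). With deprivation PSMD12 fell by 0.42 in KO cells, against 0.68 in EV cells. The call is fragile: it was lost without the variance trend and, as given above, without most single libraries. The value itself stayed between 0.19 and 0.32. As 1 of 45 genes, or 2.22%, the call was also below the 4.31% of all genes.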

How the results depend on the processing

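No paired analysis was possible because the columns carry no replicate numbers. The planned edgeR and DESeq2 fits were not run. In their place limma-voom on the recovered reads, chosen after seeing the data, called 3 genes between KO and EV cells in regular medium, 13 without glucose, 32 with deprivation in EV and 31 in KO cells, and 1 in the interaction, against 3, 13, 31, 31 and 1. In regular medium 5 were called with median-of-ratios scaling and 0 without the variance trend. Without the trend 8 were called between KO and EV cells without glucose and 0 in the interaction. The cause was not tested. The share called over all genes also changed as single libraries were left out. Leaving out each library gave ranges of 0 to 8 calls in regular medium, 3 to 14 without glucose, 27 to 35 and 28 to 33 with deprivation in EV and KO cells, and 0 to 5 in the interaction.

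Log2 fold changes near 0 turned their sign with 1 library left out. Between KO and EV cells in regular medium they ran from -0.0084 to 0.0364 for PSMB10, -0.0060 to 0.0193 for NFE2L1 and -0.0469 to 0.0024 for NFE2L2, and without glucose from -0.0323 to 0.142 for PSMB10. With deprivation PSMB7 ran from -0.0227 to 0.0261 in EV cells and -0.0840 to 0.0205 in KO cells. In the interaction PSMB7 ran from -0.0857 to 0.0188 and PSMB10 from -0.0463 to 0.128. None of these was called. Over all results, the settings that kept all libraries left 737 results on the same side of the threshold, weakened 30, strengthened 1 and reversed 0. Leaving out 1 library left 925 on the same side, weakened 97, strengthened 8 and reversed 10.

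With 2 libraries a group, p-values rest on 4 residual degrees of freedom and on the spread shared across genes. Reads of overlapping genes could not be parted by strand.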
